A study of Homo sapiens with 2 samples.

Results

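The genes described here are 10 cardiac and lateral plate mesoderm factors, HAND1, HAND2, TBX3, TBX5, TBX20, NKX2-5, ISL1, MEF2C, TBX2 and BMP10, out of 17397 genes listed in RNA-Seq of a hematopoietic differentiation of H1 cells, sampled on day 4. They were chosen by name, as factors known to pattern the heart and the lateral plate, and were matched through their NCBI Gene numbers. Earlier results of these data were known when they were chosen, so the choice was not blind to the values. BMP10 is the exception in kind, since it is a secreted ligand and the other 9 are transcription factors. The RNA-Seq held 2 libraries, a wild-type (WT) one and a MEIS2-/- one, and H1 is an established human embryonic stem cell line. Both cultures had received 50 ng/ml activin A with 40 ng/ml BMP4 over 2 days, and then 40 ng/ml VEGF with 50 ng/ml bFGF over 2 more days. The MEIS2-/- cells came from a clone grown from a single cell after lentiviral delivery of Cas9 and a guide to MEIS2 and selection in puromycin, and the sources used here do not name the clone that was sequenced or say whether the WT cells had carried a vector. Expression was given as FPKM, fragments scaled to the length of the transcript and to the total of mapped fragments, and the sequencing depth is unknown. With 1 library per genotype there was no spread between replicates, so no difference below has a replicate check and none carries a p-value. MEIS2 mRNA itself was at 10.85 FPKM (WT) and 3.44 FPKM (MEIS2-/-), 31.7% of the WT level. This value counts MEIS2 transcripts whether or not they encode an intact protein.

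The lateral plate is the layer of mesoderm that gives rise to the heart, blood vessels, blood cells and the limb buds. Cells that become endothelium and blood share it with those that become cardiac muscle. HAND1 and HAND2 are related basic helix-loop-helix factors of this layer, NKX2-5, TBX5, TBX20 and MEF2C form the core of the cardiac transcription program, ISL1 marks cardiac progenitors of the second heart field, and TBX2 and TBX3 are T-box repressors that keep parts of the heart from becoming working muscle. Several of them serve other tissues as well. HAND1 is needed in trophoblast and is made in amnion, ISL1 in motor neurons and amnion, HAND2 in sympathetic neurons, and TBX3 in pluripotent cells and endoderm. BMP signals, which the cultures received during the first step, switch on several of these genes in embryos.

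The 10 genes spanned more than 3 orders of magnitude in WT cells. HAND1 was by far the highest, at 357.53 FPKM, the rank of 175 among the 17397 genes listed. TBX3 followed with 63.48 FPKM, NKX2-5 with 59.77 FPKM and HAND2 with 44.27 FPKM. TBX20, ISL1, TBX2 and BMP10 lay between 7.03 and 2.29 FPKM, and MEF2C and TBX5 were at 0.33 and 0.10 FPKM. The same HAND1 and TBX3 headed the list in MEIS2-/- cells, while HAND2 dropped below ISL1. Since no spread is known, genes that are close in this order, such as TBX3 and NKX2-5 in WT cells, cannot be ranked against each other with confidence.

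**Figure D1:**
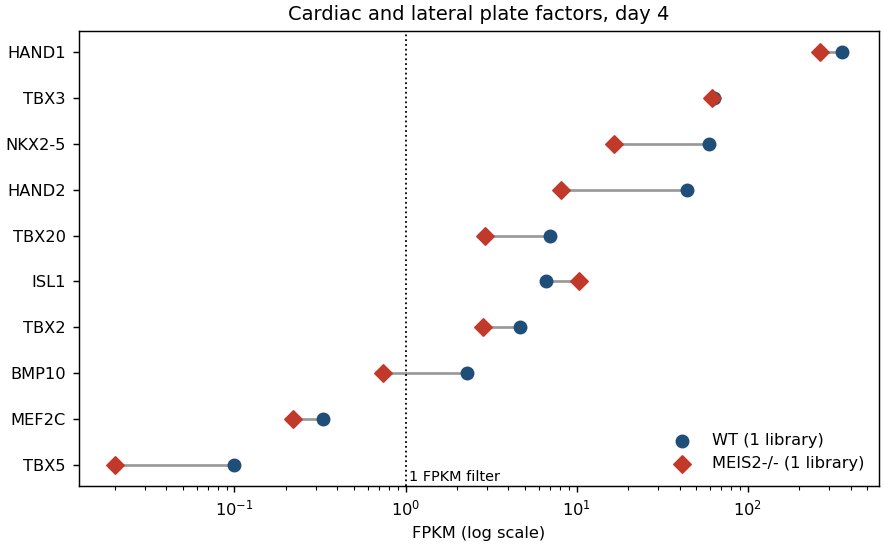
Level of each of the 10 factors in FPKM on a log axis, with the WT library as blue circles and the MEIS2-/- library as red diamonds, in order of the WT level. The paired points lay close together for HAND1 and TBX3 and far apart for HAND2 and NKX2-5, ISL1 alone was to the right in MEIS2-/- cells, and MEF2C and TBX5 lay below the dotted filter of 1 FPKM in both.

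Log2 fold changes were computed as MEIS2-/- over WT after 0.1 FPKM was added to each value, for the genes that reached 1 FPKM in either library. A gene was counted as lower or higher from a 2-fold change. MEF2C and TBX5 did not reach the filter, and BMP10 passed it through the WT library only. Other genes counted below with a value under 1 FPKM in 1 library likewise passed through the other library only. For such genes the filter itself favours the direction that is counted. Of the 8 factors that passed, HAND2, NKX2-5, BMP10 and TBX20 (4 genes) were lower by 2-fold or more in the MEIS2-/- library, against 7.97% of the 13075 genes compared. None of the 8 was at least 2-fold higher, against 7.84% of the genes compared. The other 4, TBX2, HAND1, TBX3 and ISL1, stayed within 2-fold. The median log2 fold change of the 8 was -0.97, beside 0.12 over all genes compared. Their summed level was 546.12 FPKM (WT) and 368.96 FPKM (MEIS2-/-) over all 10 genes, and HAND1 alone made up 65.5% and 71.9% of it. Without HAND1, the sum was 188.59 FPKM (WT) and 103.72 FPKM (MEIS2-/-).

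The HAND pair came apart between the libraries. HAND2 fell from 44.27 to 8.08 FPKM, 18.3% of the WT level and a log2 fold change of -2.44. HAND1 was at 357.53 FPKM (WT) and 265.24 FPKM (MEIS2-/-), 74.2% of the WT level, a log2 fold change of -0.43. In absolute terms the order was the opposite, with a difference of -92.29 FPKM for HAND1 and -36.19 FPKM for HAND2. FPKM is scaled per length, so the levels of both genes were set side by side. The FPKM of HAND1 was 8.08 times that of HAND2 in WT cells and 32.8 times that of HAND2 in MEIS2-/- cells. The share of HAND2 in the summed FPKM of the pair went from 11.0% to 2.96%. The log2 fold change of HAND1 exceeded that of HAND2 by 2.01. Of the 13075 genes compared, 1.06% had a fall as large as that of HAND2 or larger, and 18.7% had a log2 fold change as low as that of HAND1 or lower. HAND2 overlaps HAND2-AS1 on the opposite strand, a noncoding RNA that was not analysed here, and the labels do not state whether strand was kept, so reads of this partner within HAND2 cannot be told apart.

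The 3 genes nearest to HAND1 in the plane of both levels were NME4, at 332.11 and 266.53 FPKM in WT and MEIS2-/- cells, ARF1, at 357.89 and 287.71 FPKM, and IFITM1, an interferon-induced membrane protein, at 331.77 and 242.70 FPKM. NME4 is a mitochondrial nucleoside diphosphate kinase and ARF1 a small GTPase of the Golgi. Nearest to HAND2 were DLL3, an inhibitory Notch ligand, at 37.74 and 8.09 FPKM, DLG4, a postsynaptic scaffold, at 44.36 and 10.01 FPKM, and PLVAP, an endothelial diaphragm protein, at 45.46 and 10.38 FPKM. The distances, on the scale of log2 of FPKM plus 0.1, ran from 0.11 to 0.17 for HAND1 and from 0.23 to 0.36 for HAND2. Likeness over 2 libraries rests on only 2 values per gene.

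HAND1 occupies chr5:154474972-154478264 and HAND2 chr4:173524969-173530229, both on the minus strand, in GENCODE 29 on GRCh38. The expression tables hold no coordinates, and the submitters' processing notes name hg19, so these positions serve only to place the genes. The sequences just before both genes are shown because these paralogs were both expressed and differed in their change. They were taken from RefSeq windows on GRCh38.p14, chr5:154478265-154478477 for HAND1 and chr4:173530230-173530479 for HAND2, and are written 5′ to 3′ along the direction of transcription. For HAND1 the last 37 of the 250 bases were left out, since the GENCODE gene starts before the RefSeq one. Capitals mark matches to GATAA, the core of the motif bound by GATA factors, or its reverse complement TTATC.
HAND1: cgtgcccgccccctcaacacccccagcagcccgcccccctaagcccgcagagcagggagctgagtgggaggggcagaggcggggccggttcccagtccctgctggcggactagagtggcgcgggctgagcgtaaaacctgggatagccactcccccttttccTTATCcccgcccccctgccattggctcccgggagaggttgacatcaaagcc
HAND2: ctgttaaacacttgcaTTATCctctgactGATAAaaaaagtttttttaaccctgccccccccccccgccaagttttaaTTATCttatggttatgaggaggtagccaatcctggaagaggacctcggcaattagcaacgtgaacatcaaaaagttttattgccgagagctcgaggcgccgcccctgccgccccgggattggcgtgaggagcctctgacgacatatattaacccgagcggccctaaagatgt
HAND2 held 3 such matches, with their first bases 234, 221 and 172 bases before the RefSeq start, and HAND1 held 1, at 88 bases. Neither held TGACAG, the hexamer bound by MEIS proteins, on either strand.

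The same 250 bases were searched on both strands in all RefSeq windows, of which 14 belong to 7 of the 10 genes, with 7 windows for MEF2C and 2 for TBX5. No window was used for TBX3, NKX2-5 or TBX2. GATAA was present in 8 of the 14 windows and in 20.4% of all 35114 windows. It was found for HAND1, HAND2, ISL1, BMP10, MEF2C and TBX5, and not for TBX20. TGACAG was present in 5 of the 14 windows, from BMP10, MEF2C and TBX5, and in 13.0% of all windows. The match of BMP10 lies 57 bases before the RefSeq start. GGTGTG, a core of the T-box motif, was present in 1 of the 14 windows, of MEF2C, and in 14.2% of all windows. CANNTG, the E-box bound by HAND factors and their partners, was present in 6 of the 14 windows and in 61.8% of all windows. Matches of GATAA and TGACAG did not overlap each other. A match of these letters is not evidence of binding, and windows of 1 gene are not independent.

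NKX2-5, TBX20 and BMP10 fell together with HAND2. NKX2-5, the homeobox factor that heads the early cardiac program, fell from 59.77 to 16.55 FPKM, 27.7% of the WT level, with a log2 fold change of -1.85. In WT cells it was among the highest 10% of listed genes, with a level percentile of 92.7, and in MEIS2-/- cells its percentile was 73.6. TBX20, a T-box factor of heart muscle and endocardium, fell from 7.03 to 2.92 FPKM, a log2 fold change of -1.24. BMP10, the ligand made by trabecular and atrial heart muscle, was low in both, at 2.29 FPKM (WT) and 0.74 FPKM (MEIS2-/-), with a log2 fold change of -1.51. The difference of BMP10 was only -1.55 FPKM, and with a pseudocount of 1 FPKM its log2 fold change became -0.92, within 2-fold. The log2 fold change of HAND2 was the lowest of the 4, and the ratio of NKX2-5 to HAND2 was 1.35 in WT cells and 2.05 in MEIS2-/- cells.

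The T-box genes among the 10 spread widely in level and in change. TBX3 was nearly level, at 63.48 FPKM (WT) and 62.03 FPKM (MEIS2-/-), a log2 fold change of -0.03. Its close paralog TBX2 was at 4.66 FPKM and 2.84 FPKM, with a log2 fold change of -0.70, so that TBX3 exceeded TBX2 by 13.6 times in WT cells and by 21.8 times in MEIS2-/- cells. TBX5, the factor of the left ventricle, atria and forelimb, was at 0.10 FPKM (WT) and 0.02 FPKM (MEIS2-/-). Both values are under the filter, and since the tables keep 2 decimals, the lower one stands for anything from 0.015 to 0.025 FPKM. TBX5 and TBX3 neighbour each other on chromosome 12, 262 kb apart, yet TBX5 was near the bottom of the listed genes, at a level percentile of 11.0 in WT cells, and TBX3 near the top, at 93.2.

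ISL1, the LIM homeobox factor of the second heart field, was the only one of the 10 with a higher value in MEIS2-/- cells. It was at 6.66 FPKM (WT) and 10.32 FPKM (MEIS2-/-), 155% of the WT level, with a log2 fold change of 0.62, which is within 2-fold. The ratio of NKX2-5 to ISL1 was 8.97 in WT cells and 1.60 in MEIS2-/- cells. MEF2C, the MADS-box partner of these factors that is also used in endothelium, was at 0.33 FPKM (WT) and 0.22 FPKM (MEIS2-/-), under the filter in both. Its row covers 7 RefSeq transcripts. MEF2C, TBX5 and TBX2, like HAND2, overlap antisense genes that were not analysed here, 6 genes in all over the 4 factors.

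**Figure D2:**
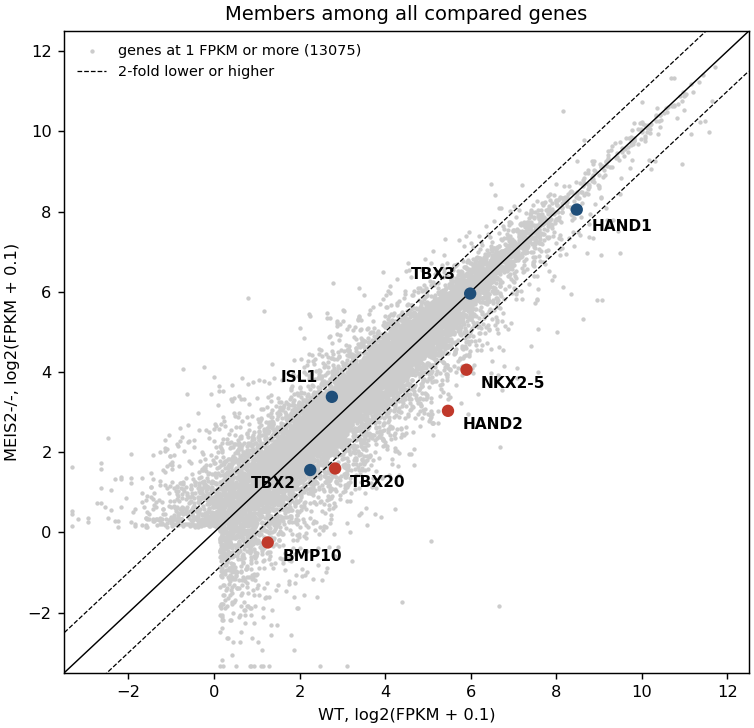
Each of the 13075 genes compared is a grey point, with log2(FPKM + 0.1) in WT cells on the horizontal axis and in MEIS2-/- cells on the vertical axis. HAND2, NKX2-5, BMP10 and TBX20 (red) lie below the dashed line of a 2-fold fall, while HAND1, TBX3, TBX2 and ISL1 (blue) lie between the dashed lines.

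The genes next to the factors were compared as well. The nearest listed gene on each side was taken, which gave 16 different neighbours past the filter that are not among the 10. These neighbours lay from 7.06 to 1488 kb from their factors, so many are not close. Of these, 14 stayed within 2-fold, 2 were at least 2-fold lower and 0 at least 2-fold higher, and their median log2 fold change was 0.07. Beside HAND2, NKX2-5, BMP10 and TBX20, the factors that fell, lay 6 of these neighbours, and both lower genes were among them. The other 10 lay beside factors within 2-fold or under the filter. Of all genes compared, 7.97% were lower and 7.84% higher by 2-fold or more. The first of the lower ones was STC2, a secreted glycoprotein 79.4 kb from NKX2-5, which fell from 17.75 to 3.18 FPKM, a log2 fold change of -2.44, while BNIP1 on the other side of NKX2-5 was at 8.51 and 6.86 FPKM. The other was GKN2, a gastric mucosal protein 73.7 kb from BMP10, at 1.38 and 0.60 FPKM, a log2 fold change of -1.08. GKN2 is close to the threshold and passed the filter through the WT library only. Of these lower neighbours, only STC2 reached 1 FPKM in both libraries. For HAND2, FBXO8, 706 kb away, was at 4.07 FPKM (WT) and 3.82 FPKM (MEIS2-/-), and SCRG1 was under the filter. Beside HAND1, SAP30L, 13.9 kb away, was at 7.32 and 7.41 FPKM. TBX4, the hindlimb factor beside TBX2, was at 0.69 and 1.14 FPKM, a log2 fold change of 0.65 where that of TBX2 was -0.70.

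The families of the 10 factors moved in both directions. In the group of HAND and related basic helix-loop-helix genes, 4 of the 8 genes at 1 FPKM or more fell at least 2-fold, 1 rose and 3 did neither, with a median log2 fold change of -1.09. Next to HAND2 these were TWIST2, from 2.99 to 0.53 FPKM, TCF15, from 3.98 to 1.37 FPKM, and TCF21, a factor of the epicardium, from 8.64 to 3.36 FPKM. The gene that rose was MSC, from 1.44 to 9.99 FPKM. TWIST1 was at 16.05 and 8.95 FPKM. The E proteins with which HAND factors pair stayed within 2-fold, with TCF3 at 96.73 and 106.36 FPKM, TCF4 at 8.14 and 6.81 FPKM and TCF12 at 12.44 and 14.74 FPKM. With the cofactor FHL2 and with PHOX2A, which fell from 2.07 to 0.72 FPKM, these 5 genes had a median of 0.14 and 1 of them was at least 2-fold lower.

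Of the 17 T-box genes, 11 reached 1 FPKM, with a median log2 fold change of -0.70. Besides TBX20, TBX1 fell from 2.28 to 0.60 FPKM and TBX6, a factor of paraxial mesoderm, from 5.38 to 2.03 FPKM, which makes 3 lower genes. TBXT, the primitive streak factor brachyury, was the 1 higher gene, at 2.44 and 10.74 FPKM. EOMES was at 5.18 and 2.97 FPKM. In both libraries TBX3 was the highest T-box gene. Within the NK2 family, 3 of 7 genes passed the filter. NKX2-3 was at 0.18 and 1.06 FPKM, at least 2-fold higher, and NKX2-6 at 1.54 and 0.88 FPKM, so NKX2-5 held nearly all of the family's sum of 62.13 FPKM (WT) and 18.85 FPKM (MEIS2-/-). The family median was -0.74. MEF2C was the lowest MEF2 gene, under MEF2D at 13.81 and 7.66 FPKM, MEF2A at 4.50 and 4.69 FPKM and MEF2B at 2.99 and 2.24 FPKM, none of which changed 2-fold, and the median of these 3 was -0.40. Of 9 ISL, LHX and LIM cofactor genes, 4 were lower, namely ISL2, at 1.01 and 0.08 FPKM, LHX1, at 20.61 and 5.93 FPKM, LDB2, at 28.60 and 8.73 FPKM, and LMO2, at 49.09 and 17.64 FPKM. LMO4 was the 1 higher gene, at 11.03 and 24.86 FPKM, and the median of the 9 was -0.14.

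Other factors of the heart were compared next. Of 17 further cardiac transcription factors and cofactors at 1 FPKM or more, 2 were at least 2-fold lower, 1 at least 2-fold higher and 14 neither, with a median log2 fold change of -0.39. The GATA factors that act with NKX2-5 and HAND2 were high in both libraries. GATA4 was at 71.37 and 65.34 FPKM, GATA5 at 26.14 and 29.45 FPKM and GATA6 at 72.52 and 55.42 FPKM. ZFPM2, the GATA cofactor FOG2, fell from 4.34 to 1.39 FPKM, and with TBX1 it makes the 2 lower genes. The Notch-responsive HEY2 was at 16.88 and 9.31 FPKM.

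Among 11 genes of cardiac and cardiovascular progenitors, 4 were lower and 1 higher, with a median of -0.75. KDR, the VEGF receptor shared by vascular and cardiac progenitors, fell from 323.77 to 61.98 FPKM. MESP1, at 8.12 and 3.09 FPKM, MESP2, at 1.92 and 0.60 FPKM, and FGF10, at 9.54 and 4.40 FPKM, were the other lower genes. FGF8 was the higher one, at 0.91 and 2.59 FPKM. PDGFRA, at 19.53 and 14.25 FPKM, and APLNR, at 223.49 and 132.54 FPKM, stayed within 2-fold.

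Other genes of the lateral plate, limb and splanchnic mesoderm split, with 5 lower, 4 higher and 7 neither among 16, and a median of -0.46. The homeobox genes MSX1, at 187.93 and 84.26 FPKM, and PRRX2, at 15.75 and 7.07 FPKM, fell, as did PRRX1, FOXC1 and FOXC2 from lower levels. FOXF1, a factor of splanchnic mesoderm, was at 23.38 and 11.73 FPKM, just within 2-fold. WNT2, at 0.35 and 4.23 FPKM, WNT2B, at 0.50 and 5.07 FPKM, GREM1, at 0.46 and 4.37 FPKM, and PITX1, at 35.95 and 87.76 FPKM, rose. WNT2, WNT2B and GREM1 passed the filter through the MEIS2-/- library only. PRRX1, at 1.74 and 0.82 FPKM, passed it through the WT library only and lay on the threshold, with a log2 fold change of -1.0. With a pseudocount of 1 FPKM, 2 genes of the lateral plate list counted as lower and 4 as higher. Of 6 paraxial and intermediate mesoderm genes, 5 were lower and 1 higher, with a median of -1.42. LHX1, TCF15, TBX6, FOXC1 and FOXC2 were the lower ones, and PAX2, at 0.91 and 1.92 FPKM, the higher. FOXC1 and FOXC2 are counted in the lateral plate list as well. PAX2 passed the filter through the MEIS2-/- library only and lay on the threshold, with a log2 fold change of 1.0. Under the other scalings described below, 0 genes of this list counted as higher.

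Genes of contracting heart muscle ranged from undetected to among the highest levels listed here. ACTC1, cardiac actin, was at 391.74 FPKM (WT) and 357.35 FPKM (MEIS2-/-), and TNNC1 at 58.68 and 60.91 FPKM. MYL7, the atrial myosin light chain, fell from 74.51 to 31.30 FPKM, and TNNI1, TNNI3 and MYH6 fell from 7.74 FPKM or less. These were the 4 lower genes of 11, with no gene at least 2-fold higher and a median of -0.53. MYH6, at 1.13 and 0.50 FPKM, passed the filter through the WT library only. TNNI3, at 7.74 and 3.73 FPKM, was close to the threshold. With a pseudocount of 1 FPKM the count of lower genes became 1, and with a filter at 5 FPKM it became 2. MYH7, the ventricular myosin, was listed at 0 in WT cells and at 0.01 FPKM in MEIS2-/- cells, TNNT2 was at 4.71 and 3.37 FPKM, and RYR2 at 0.05 and 0.10 FPKM. Of the epicardium genes, 3 passed the filter, with 1 lower (TCF21), 1 higher (SEMA3D, at 0.42 and 1.26 FPKM) and a median of -0.55, and WT1 was at 0.04 and 0.09 FPKM.

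The BMP pathway was strongly expressed in both libraries. Of 19 ligands, antagonists and response genes, all past the filter, 4 were at least 2-fold lower, 1 higher and 14 neither, with a median of -0.43. BMP4, at 272.89 and 134.75 FPKM, the extracellular modulator BMPER, at 53.66 and 19.79 FPKM, CHRD, at 6.78 and 2.93 FPKM, and MSX1 were the lower ones, and GREM1 the higher. The direct BMP targets ID1, at 664.99 and 837.65 FPKM, ID2, at 211.68 and 156.99 FPKM, ID3, at 529.13 and 321.63 FPKM, and SMAD6, at 175.82 and 128.11 FPKM, stayed within 2-fold.

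Markers of other cell types differed between the libraries as well, and in a bulk sample fewer cells of a type and less RNA per cell cannot be told apart. All 10 endothelium markers passed the filter, with 6 lower by 2-fold or more. Their summed level was 671.45 FPKM (WT) and 381.35 FPKM (MEIS2-/-), and KDR and ETV2, the latter at 109.62 and 17.54 FPKM, were among the lower ones. This sum includes SOX17, at 141.01 FPKM (WT) and 264.03 FPKM (MEIS2-/-), the only endothelium marker with a higher value in MEIS2-/- cells. SOX17 is also counted among the endoderm markers below, so the sums of these lists share it. Of 10 amnion and trophectoderm markers at 1 FPKM or more, 9 were at least 2-fold higher, with a sum over the 12 listed of 85.07 FPKM (WT) and 240.92 FPKM (MEIS2-/-). KRT7 was at 0.51 and 16.68 FPKM, TFAP2C at 10.41 and 68.29 FPKM and GATA3 at 55.06 and 55.40 FPKM, while KRT23 and ELF5 were listed at 0 in WT cells. Of 9 endoderm markers, 6 were at least 2-fold higher, with sums of 603.04 and 1286.79 FPKM. APOA1, at 401.38 and 879.13 FPKM, made up most of both sums. TTR, at 0.38 and 5.31 FPKM, and AFP, at 0.32 and 3.91 FPKM, passed the filter through the MEIS2-/- library only. The 3 within 2-fold were SOX17, FOXA2, at 43.06 and 49.12 FPKM, and CER1, at 2.10 and 1.45 FPKM. Of 5 markers of undifferentiated cells at 1 FPKM or more, 3 were higher, with POU5F1 at 285.65 and 1454.14 FPKM but SOX2 at 0.09 and 0.15 FPKM. HAND1, ISL1 and TBX3, the factors that amnion, pluripotent cells or endoderm also make, were 3 of the 4 that stayed within 2-fold, and the part of such cells in their levels was not tested. Smooth muscle and fibroblast markers, with 1 of 6 lower (COL1A1, at 464.09 and 160.87 FPKM) and a median of -0.33, summed to 797.62 and 420.56 FPKM. Of the neural crest and sympathetic neuron markers, for which HAND2 is also known, SOX10 was at 2.71 and 1.07 FPKM and TH at 0.01 and 0 FPKM.

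The median log2 ratio of all genes reaching 5 FPKM in each library was 0.12, and setting this to 0 lowered each value by about as much. A filter leaves the value of a gene as it is. Over the other pseudocounts and scalings, the log2 fold change of HAND2 ran from -2.55 to -2.32, that of NKX2-5 from -1.96 to -1.79, that of TBX20 from -1.35 to -1.03 and that of HAND1 from -0.55 to -0.43. ISL1 ran from 0.51 to 0.63 and TBX3 from -0.15 to -0.03.

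**Figure D3:**
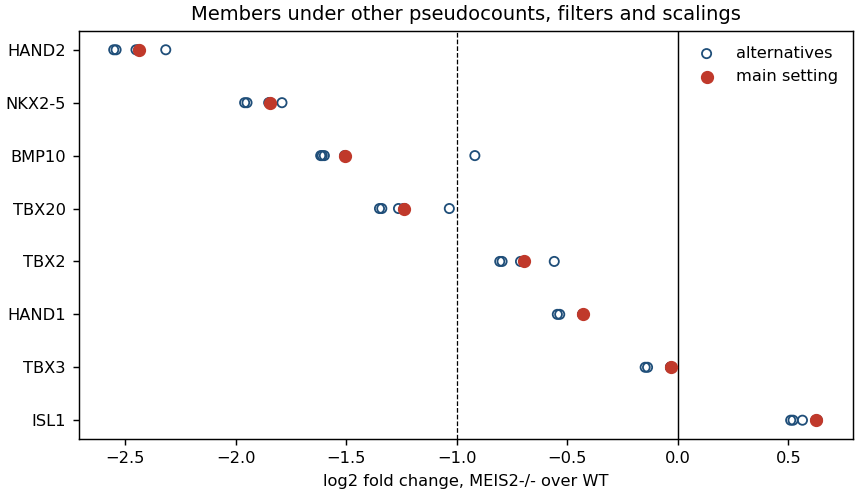
Log2 fold change, MEIS2-/- over WT, of the 8 factors at 1 FPKM or more under the reported setting (red) and under each alternative (open circles), with the dashed line at a 2-fold fall. HAND2, NKX2-5 and TBX20 stayed left of the line in each, BMP10 crossed it once, to -0.92 with a pseudocount of 1 FPKM, and ISL1 stayed right of 0.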

How the data were processed

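RNA-Seq was performed by BGI. The labels describe Trizol extraction and a TruSeq RNA preparation, and the submitters' processing notes list BWA, Bowtie, RSEM and hg19 without their roles. The deposited tables give FPKM as the authors computed it, with 2 decimals for each gene. Because FPKM is relative to the total of mapped fragments, a change in a few abundant genes shifts all values. In 716 WT and 770 MEIS2-/- genes with 1 transcript and 0.05 to 0.2 FPKM, agreement with steps of whole reads reached only 0.12 and 0.15 on a scale to 1, so depth is unknown and no counting error is given.

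Of 17397 NCBI Gene numbers, 17374 were matched to symbols. Both libraries were used as deposited. Fold changes, the filter, the threshold and the alternatives are stated with the results; TMM (30% of log ratios, 5% of means trimmed per side) was computed on FPKM. The factors and lists were chosen with earlier results of these data known. Genes were named if they were one of the 10 factors, belonged to a list, neighboured a factor or lay nearest to HAND1 or HAND2. Other genes of the lists shown were picked as examples after their values were seen. The computation was tested on simulated data with planted changes. Python 3.11.15, numpy 2.4.6, pandas 2.3.3 and matplotlib 3.10.9 were used. Some genes of the lists are not reported here.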

Additional observations from a re-analysis of the deposited data

How the results depend on the processing

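Each difference comes from 1 library per genotype, so its error is unknown and sequencing depth sets a limit that cannot be stated. Over 4 other pseudocounts and scalings, 31 of 32 values of single factors kept their direction and their side of the 2-fold threshold, the exception being BMP10 with a pseudocount of 1 FPKM. The count of 4 lower factors became 3 with a pseudocount of 1 FPKM and 3 with a filter at 5 FPKM, each time without BMP10. It became 5 at a 1.5-fold threshold, with TBX2 added, and 1 (HAND2) at a 4-fold threshold. At 1.5-fold 1 factor (ISL1) counted as higher. The log2 difference between HAND1 and HAND2 ran from 1.89 to 2.02. Of all genes, 1042 lower and 1025 higher became 693 and 623 with a pseudocount of 1 FPKM, 598 and 554 with a filter at 5 FPKM, 1890 and 2353 at 1.5-fold, 241 and 194 at 4-fold, 1516 and 1567 without a filter, 1197 and 833 with the median log2 ratio set to 0, and 1179 and 853 with TMM. Of 208 alternative counts in the wider lists, 60 moved by more than 1.5 times to values of 0, 1, 2, 3, 5, 6, 7 or 8. Of 78 list medians, 6 moved by more than a 1.5-fold step of the underlying ratio. Without a filter, the median was -0.38 for paraxial and intermediate mesoderm, 0.038 for epicardium, -0.033 for T-box genes and -0.81 for ISL and LIM cofactors, and with the filter at 5 FPKM it was -1.34 for epicardium and -1.85 for the NK2 family. Steps under that size were also large beside a small median, as for the sarcomere and hormone genes, at -0.13 both without a filter and with that at 5 FPKM. By construction the filters take in other genes, the thresholds other cuts, and a larger pseudocount shrinks the fold changes of low genes.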
